A study of Sus scrofa with 11 samples.

Results

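The genes described are the beaded-filament collagens of type VI, the FACIT collagens XII, XIV and XVI, and the network collagen VIII, chosen as the rows of the deposited expression values whose gene name was 1 of 10 symbols. Of these, 9 had a row among the 30376 genes, and COL6A1 had none under that symbol. The 9 were COL6A2, COL6A3, COL6A5, COL6A6, COL8A1, COL8A2, COL12A1, COL14A1 and COL16A1. A row named LOC100623720 carries the description of the alpha-1(VI) chain, and it was added by that description after the values had been seen, so it is given beside the members and not counted among them. Together the members took 0.767 to 1.40% of the reads on genes in a diabetic wound and 1.05 to 1.35% in a non-diabetic wound.

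RNA was sequenced from punch biopsies of dorsal skin wounds of Yucatan minipigs on day 10, with 1 library per wound. The 7 diabetic wounds came from 1 female minipig, 6 months old when it received 125 mg/kg of streptozotocin (STZ), a toxin of the insulin-producing beta cell. The animal was then maintained for a period before wounding, so it was older than 6 months when the wounds were made. It was given insulin until a week before wounding. The 4 non-diabetic wounds came from 1 minipig without STZ, also female, whose age was not given in the sources used here. All wounds in both animals were made through the full skin thickness with a 2 cm punch. Since each group was 1 animal, diabetes and animal cannot be told apart, and the p-values measure only the spread between wounds.

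Collagen VI is built from alpha-1, alpha-2 and a further chain, usually alpha-3, into tetramers that join end to end as beaded microfilaments around cells and basement membranes. FACIT collagens, which have interruptions in the triple helix, sit on the surface of type I and type III fibrils and influence how those fibrils are spaced. Collagen VIII is a short-chain collagen that forms hexagonal lattices, is known from vessel walls and from Descemet's membrane, and is built from alpha-1 and alpha-2 chains encoded by COL8A1 and COL8A2.

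The stretches upstream of 3 of the members are shown. They belong to both type VIII chains, of which COL8A1 did not overlap between the groups and COL8A2 did. The other is the alpha-3 chain of type VI, which also overlapped. Each is the 250 bases before the annotated start, read 5′ to 3′ on the gene's strand from Sscrofa11.1, the build of the deposited coordinates. Capitals mark 4 motifs searched on both strands, TATAAA (the TATA box), CCAAT (the CCAAT box), GGGCGG (the GC box) and TGACTCA (the AP-1 site).
COL8A1, chr13:159374719-159374968, minus strand: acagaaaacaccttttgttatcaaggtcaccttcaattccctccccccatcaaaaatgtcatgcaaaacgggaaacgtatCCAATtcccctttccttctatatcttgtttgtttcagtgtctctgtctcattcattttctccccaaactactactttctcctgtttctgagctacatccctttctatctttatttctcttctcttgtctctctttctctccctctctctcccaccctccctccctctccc
COL8A2, chr6:92272047-92272296, minus strand: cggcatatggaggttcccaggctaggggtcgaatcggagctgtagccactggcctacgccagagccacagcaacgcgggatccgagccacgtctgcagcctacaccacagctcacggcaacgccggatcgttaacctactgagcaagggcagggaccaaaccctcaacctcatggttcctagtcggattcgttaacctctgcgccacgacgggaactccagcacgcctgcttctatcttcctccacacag
COL6A3, chr15:137103688-137103937, minus strand: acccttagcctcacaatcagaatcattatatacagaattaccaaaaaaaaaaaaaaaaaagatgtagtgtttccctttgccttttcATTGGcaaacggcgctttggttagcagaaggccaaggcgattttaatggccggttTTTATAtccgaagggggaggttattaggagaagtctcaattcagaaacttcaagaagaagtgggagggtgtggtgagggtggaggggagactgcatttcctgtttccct

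The 3 stretches differed in the motifs they held. COL6A3 held a TATA box and a CCAAT box in a stretch of 42.4% G and C, COL8A1 held a CCAAT box at 43.2%, and COL8A2 held none of the 4 motifs. The 3 stretches are not typical of the members in this. They held no GC box, while the stretches of COL6A5, COL6A6, COL12A1, COL14A1 and COL16A1, not shown, each did. That of COL6A2 was not read. Of the 13952 genes tested with a full window of this length, 54.9% held a GC box, 31.97% a CCAAT box, 7.04% a TATA box and 2.63% an AP-1 site, and the median content of G and C was 60.4%. An annotated start is not a measured start, and a match of letters is not a bound site.

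The libraries held 28314785 to 40168372 reads on genes. A single read on a 2 kb gene equalled 0.0112 to 0.0194 FPKM (fragments per kilobase of gene length, scaled by a divisor for each library). That divisor was 0.854 to 1.18 times the reads on genes of its library. Diabetic replicate 4 and non-diabetic replicate 1 stood apart from the other 9 wounds on the first principal component, which held 44.5% of the variance. They also had the lowest summed FPKM of 12 keratinocyte markers, 47.9 and 281 against 1903 to 7301 in the others. Diabetic replicate 3 had a summed FPKM of 1868 over 10 skeletal muscle genes, against 1.19 to 5.47 elsewhere. Results are given for all wounds first, and then without those wounds where a value turned on them.

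The members were compared between diabetic and non-diabetic wounds to ask whether this class of matrix gene differed at day 10. A gene was tested where its FPKM was at least 0.5 in at least 4 libraries, on log2(FPKM + 0.5) with limma, and counted as called where the adjusted p was under 0.05 and the log2 fold change passed 0.5 in either direction. Of the 9 members, 8 passed that filter and 0 were called in either direction, while the background over all 13956 genes was 1.35% called higher and 1.66% called lower in diabetic wounds. At an unadjusted limma p under 0.05 with the same fold, the count was 1 of 8, COL8A1, beside 7.13% of all genes. Voom on the recovered reads also called 0 members.

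**Figure D1:**
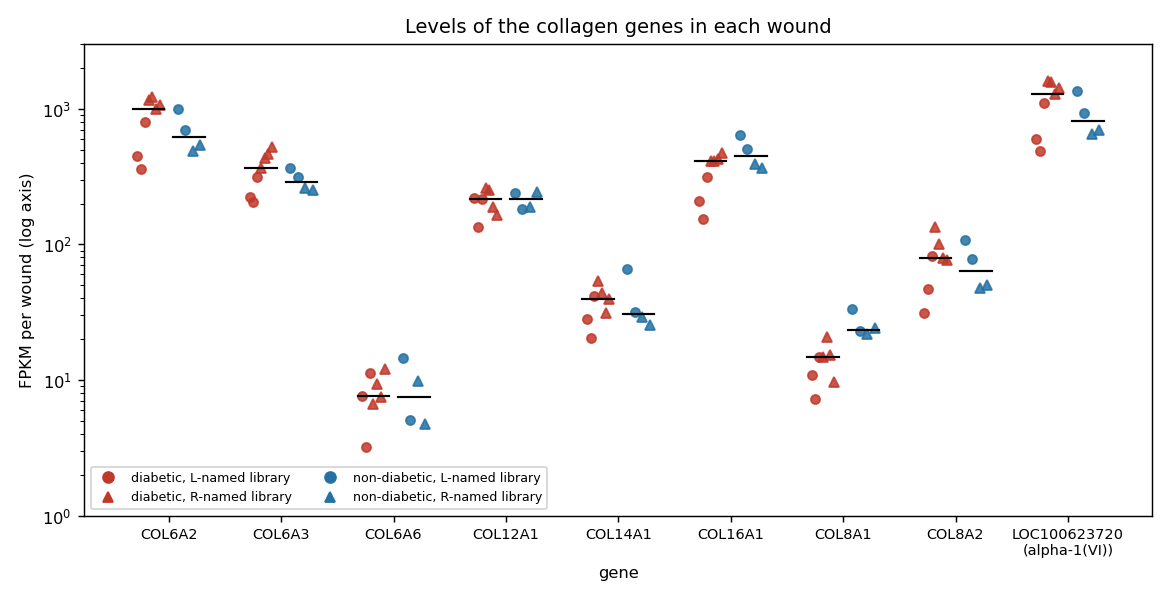
Each point is the FPKM of a gene in 1 wound, on a log axis, with the group in colour, the letter of the library name as the symbol and the median as a bar. The diabetic and non-diabetic points of COL8A1 do not overlap, and those of every other gene drawn do.

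COL8A1 (chr13:159216138-159374718, minus strand), the alpha-1 chain of the type VIII lattice, was the member with the lowest level in diabetic relative to non-diabetic wounds. In the 7 diabetic wounds it measured 7.29 FPKM at the lowest, 14.7 at the median and 20.9 at the highest. In the 4 non-diabetic wounds it measured 33.2, 23.0, 22.0 and 24.1 FPKM. All diabetic wounds therefore lay below all non-diabetic wounds, a separation that 5.65% of the genes tested showed in either direction and 2.96% showed with diabetic wounds lower. The log2 difference was -0.96 (SE 0.24, 95% interval -1.49 to -0.43), a fold of 0.513, with an adjusted p of 0.0535 by limma, just outside the threshold. The paper, which used DESeq2 on counts, lists COL8A1 among the downregulated matrix genes of diabetic wounds. The two-sided exact permutation test over the 330 splits gave p = 0.0121 for this gene alone, unadjusted. Over 26 alternative settings the direction did not turn, the adjusted p ran from 0.0201 to 0.284, and 5 settings called the gene, among them leaving out diabetic replicate 2 (adjusted p = 0.0485) or diabetic replicate 5 (0.0300). Without both wounds that stood apart the log2 difference was -0.87 with an adjusted p of 0.162.

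COL8A2 (chr6:92246047-92272046, minus strand), the partner chain of the same lattice, did not show that separation. Its level was 31.0 to 133 FPKM in diabetic wounds with a median of 79.1, and 108, 77.8, 47.5 and 49.7 FPKM in non-diabetic wounds. The groups overlapped, and the log2 difference was 0.10 (SE 0.37, 95% interval -0.70 to 0.91, adjusted p = 0.919). COL8A2 stood above COL8A1 in every wound. The FPKM of COL8A1 relative to COL8A2 was 0.111 to 0.350 in diabetic wounds and 0.295 to 0.485 in non-diabetic wounds, so the ranges overlapped, with diabetic replicate 1 the only diabetic wound inside the non-diabetic range.

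COL6A2 (unplaced scaffold, bases 595471 to 630235, minus strand) encodes the alpha-2 chain of the type VI microfilament and was the most abundant member. It measured 449, 357 and 800 FPKM in diabetic replicates 1 to 3 and 1157, 1213, 996 and 1068 in replicates 4 to 7. In the non-diabetic wounds it measured 987, 691, 486 and 542 FPKM. The groups overlapped and the diabetic wounds spanned 3.39-fold from lowest to highest. The log2 difference was 0.28 (SE 0.36, 95% interval -0.50 to 1.06, adjusted p = 0.734).

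COL6A3 (chr15:137011549-137103687, minus strand), the alpha-3 chain, followed a similar order of wounds at a lower level. It measured 223, 204, 313, 366, 436, 463 and 525 FPKM in diabetic replicates 1 to 7 and 365, 316, 258 and 252 FPKM in the non-diabetic wounds. The log2 difference was 0.22 (SE 0.26, 95% interval -0.35 to 0.78, adjusted p = 0.709). COL6A2 measured 1.75 to 3.16 times COL6A3 in diabetic wounds and 1.88 to 2.70 times in non-diabetic wounds, ranges that overlapped.

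LOC100623720 (chr13:208295245-208321789, plus strand), the row described as the alpha-1(VI) chain, tracked COL6A2 more closely than any other gene tested. Its FPKM was 484 to 1597 in diabetic wounds and 649 to 1353 in non-diabetic wounds, and the log2 difference was 0.28 (adjusted p = 0.734). COL6A2 measured 0.724 to 0.779 times LOC100623720 in diabetic wounds and 0.729 to 0.773 times in non-diabetic wounds. Pearson's r between them was 0.998 over 11 wounds that share 2 animals, given as a description. Of all pairs of chains described here, this one kept the narrowest ratio.

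A second row, LOC110259172, is annotated as a transcribed pseudogene like the alpha-1(VI) chain and lies on the scaffold that holds COL6A2. Its span of 4778 bases aligned over 99.9% of its length to the span of LOC100623720, with 98.1% of positions identical. Within the coding exons of LOC100623720, 1475 positions were aligned with 0 differing bases and 14 gap positions. The following stretch is shown because it stands letter for letter in both rows, at chr13:208309987-208310050 on the plus strand and at bases 728485 to 728548 of the scaffold on the minus strand.
Both rows: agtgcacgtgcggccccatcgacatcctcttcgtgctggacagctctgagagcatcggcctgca

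Reads from such stretches could come from either row, and how shared reads were counted is not given in the sources used here, so the level of both rows is uncertain. LOC110259172 measured 33.1, 26.3, 63.2, 93.7, 96.0, 77.6 and 83.5 FPKM in diabetic replicates 1 to 7 and 147, 93.4, 65.6 and 73.0 FPKM in the non-diabetic wounds, on 2679 to 9641 reads. The log2 difference between the groups was -0.55 (adjusted p = 0.484). Its level relative to LOC100623720, however, separated the groups, at 0.0542 to 0.0607 in diabetic and 0.101 to 0.109 in non-diabetic wounds. Such a separation with diabetic wounds lower was shown by 1.47% of genes measured relative to LOC100623720. With 1 animal per group, a difference between the animals in this locus cannot be told apart from a difference in diabetes.

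The remaining type VI chains were low. COL6A6 (chr13:1817475-1985968, minus strand), an alternative to alpha-3 in the trimer, measured 7.61, 3.19, 11.3, 6.68, 9.33, 7.46 and 12.1 FPKM in the diabetic wounds and 14.5, 5.08, 9.87 and 4.74 FPKM in the non-diabetic wounds. The log2 difference was below 0.01 in size (SE 0.36, 95% interval -0.79 to 0.79). COL6A5 (chr13:2029543-2174404, minus strand), another such alternative, was under the filter, with 4 to 36 reads at 0.0132 to 0.122 FPKM in the diabetic wounds against 0.0270 to 0.0938 in the others. A difference in COL6A5 was not detectable at this depth, and the exact permutation test, two-sided, gave p = 0.982. LOC100517188, described as alpha-4(VI)-like, held 15 to 67 reads.

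**Figure D2:**
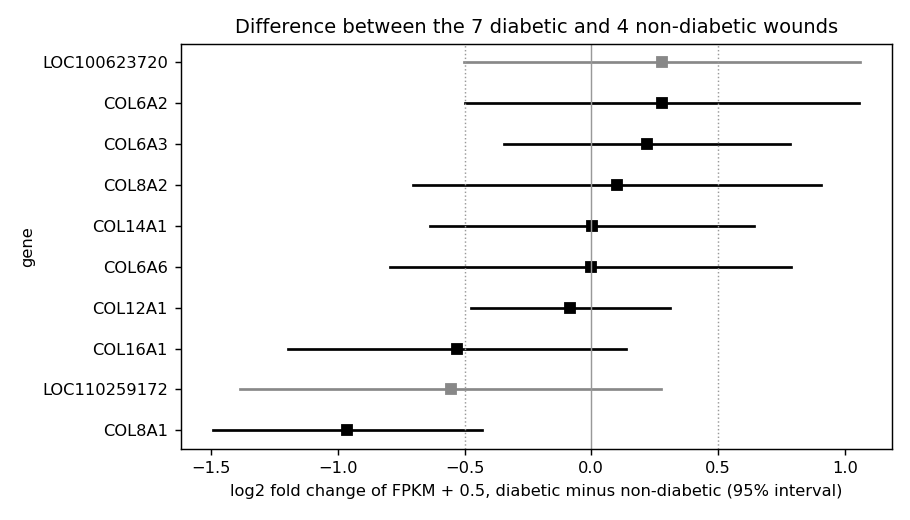
Log2 fold change of FPKM + 0.5, diabetic minus non-diabetic wounds, with its 95% interval by limma, for the 8 members tested (black) and for the rows LOC100623720 and LOC110259172 (grey). The dotted lines mark the fold threshold of 0.5, and only the interval of COL8A1, -1.49 to -0.43, lies wholly below 0.

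COL16A1 (chr6:88177798-88243718, minus strand) is a FACIT collagen that is found near the dermal-epidermal junction and on fibrillin microfibrils in skin. It measured 208, 155, 314, 411, 411, 423 and 473 FPKM in diabetic replicates 1 to 7 and 637, 501, 388 and 367 FPKM in the non-diabetic wounds. The groups overlapped. Its log2 difference of -0.53 (SE 0.31, 95% interval -1.20 to 0.14, adjusted p = 0.394) was the next largest in size among the members after COL8A1.

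COL12A1 (chr1:90744409-90875127, plus strand), a FACIT collagen of dense connective tissue and of granulation tissue, was the most even of the members. It measured 219, 133, 217, 260, 250, 189 and 165 FPKM in the diabetic wounds and 240, 183, 190 and 242 FPKM in the non-diabetic wounds. The log2 difference was -0.08 (SE 0.18, adjusted p = 0.856), and its 95% interval of -0.48 to 0.31 was the narrowest of the 8.

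COL14A1 (chr4:18690197-18925111, minus strand), a FACIT collagen that binds decorin and limits fibril growth, was lower than COL12A1 in every wound. Its lowest, median and highest diabetic values were 20.3, 39.3 and 53.7 FPKM, and the non-diabetic wounds measured 66.1, 32.0, 29.0 and 25.3 FPKM. The log2 difference was 0.00 (SE 0.29, 95% interval -0.64 to 0.64). The FPKM of COL12A1 relative to COL14A1 was 4.21 to 7.79 in diabetic and 3.64 to 9.58 in non-diabetic wounds.

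By the level per length over all wounds, COL6A2 came first, followed by COL16A1 and COL6A3, then COL12A1, COL8A2, COL14A1, COL8A1, COL6A6 and COL6A5. COL16A1 and COL6A3 were close neighbours whose ranges overlapped in diabetic wounds, and COL16A1 was above COL6A3 in each non-diabetic wound: COL6A3 measured 0.891 to 1.32 times COL16A1 in diabetic wounds and 0.573 to 0.687 times in non-diabetic wounds. COL6A2, COL16A1, COL6A3 and COL12A1 lay at percentiles 99.2 to 99.8 of mean FPKM among all genes, and COL8A1 lay at percentile 89.5.

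Ratios between members were then read in each wound. Among 36 pairs of the 8 members tested and LOC100623720, the ratio of FPKM did not overlap between the groups in 8, of which 5 were among the 8 pairs with COL8A1 and 3 among the 8 pairs with COL16A1. Relative to COL8A1, 40.0% of all genes separated the groups, so the 5 pairs lie near the background. Relative to COL16A1, 10.1% of all genes did so. The 3 pairs of COL16A1 were those with COL6A2, COL6A3 and LOC100623720, the main type VI chains, whose levels ran in similar orders of wounds and are not independent. COL6A2 measured 2.15 to 2.95 times COL16A1 in diabetic wounds and 1.25 to 1.55 times in non-diabetic wounds. Relative to COL6A3, 3.05% of all genes separated the groups and 2.36% did so with diabetic wounds lower, as COL16A1 and COL8A1 did.

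**Figure D3:**
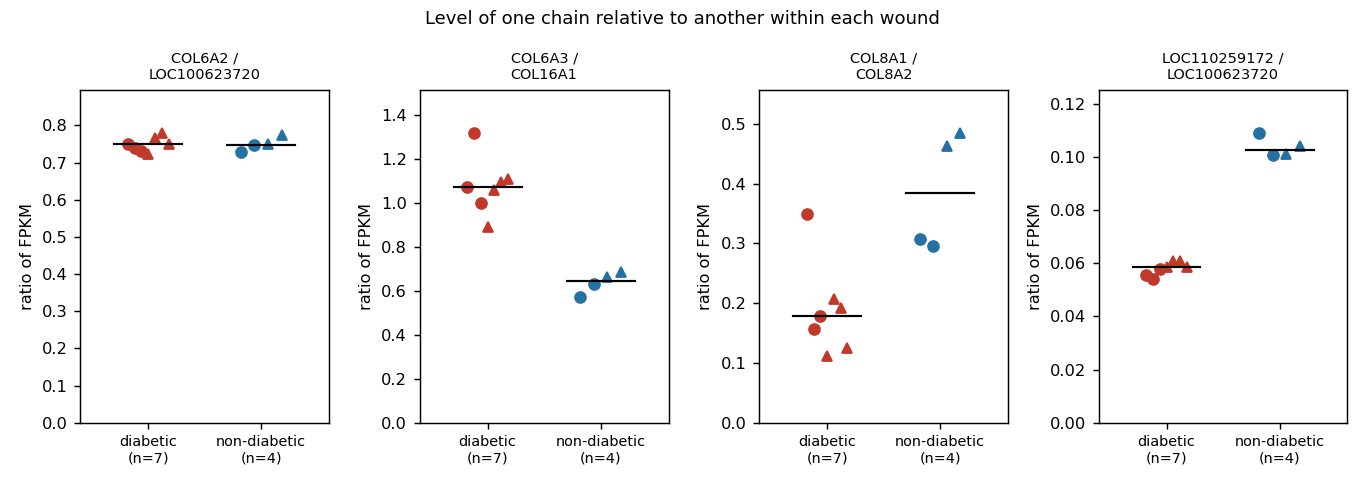
Ratio of the FPKM of 1 chain to another in each wound, by group, with the median as a bar and circles for L-named and triangles for R-named libraries. COL6A2 kept the same ratio to LOC100623720 in both groups, the ratios of COL6A3 to COL16A1 and of LOC110259172 to LOC100623720 separated the groups, and COL8A1 to COL8A2 overlapped in 1 diabetic wound.

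The spread of COL6A2, COL6A3 and LOC100623720 in diabetic wounds ran with the letter that opens each library name, while that of COL6A6 did not (R-named minus L-named 0.38, adjusted p = 0.618). Diabetic replicates 1 to 3 and non-diabetic replicates 1 and 2 have names that open with L, and the other 6 have names that open with R. The labels do not say what the letter means. The study's methods place the wounds in rows to either side of the spine but do not tie the letters to these sides, so whether L and R stand for left and right is not known here. A limma fit with the 4 combinations of group and letter was added after the values had been seen, and it holds only 2 non-diabetic wounds per letter.

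COL6A2 averaged 536 FPKM (SD 234, n = 3) in diabetic L-named and 1108 (SD 95.7, n = 4) in diabetic R-named libraries, and 839 (SD 209, n = 2) and 514 (SD 39.4, n = 2) in the non-diabetic ones. The difference between groups thus ran in opposite directions, at -0.71 on the log2 scale in L-named libraries (adjusted p = 0.182 by limma) and 1.11 in R-named libraries (adjusted p = 0.0457). The difference of these differences was 1.82 (SE 0.41, adjusted p = 0.0419). COL6A3 differed by 1.28 (SE 0.27, adjusted p = 0.0418) and COL16A1 by 1.57 (SE 0.34, adjusted p = 0.0418) in the same direction.

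These 3 members of 8 passed the test of the difference between letters, beside 6.46% of all genes in either direction and 3.76% in this direction. LOC100623720 and LOC110259172 passed it as well, at 1.83 and 1.95. With the same summed FPKM in every library, the difference between letters was smaller but still called. It was 1.52 for COL6A2, 0.99 for COL6A3 and 1.27 for COL16A1. The calls lay close to the threshold. Without diabetic replicate 1, 2, 4, 5, 6 or 7, or without non-diabetic replicate 1, 2, 3 or 4, the count of members called was 0, and without diabetic replicate 3 it was 5, with COL8A2 and COL14A1 added. Without both wounds that stood apart it was also 0, with 1.54 for COL6A2 (adjusted p = 0.232).

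COL8A2 had the largest difference between letters of any member, 1.85 (SE 0.51, adjusted p = 0.0567), and COL14A1 had 1.26 (adjusted p = 0.120). COL8A1 behaved otherwise in value, with a group difference of -1.35 in L-named libraries (adjusted p = 0.0567) and -0.64 in R-named libraries (adjusted p = 0.206), both with diabetic wounds lower, and a difference between letters of 0.71 (SE 0.46, 95% interval -0.33 to 1.75, adjusted p = 0.315). COL12A1 had the smallest, 0.17 (SE 0.38, adjusted p = 0.784).

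Within single letters, COL16A1 was called lower in diabetic L-named libraries, at -1.38 (adjusted p = 0.0202), where 2.42% of all genes were called lower. In a fit of the 5 L-named libraries alone, with fewer wounds for the spread, that difference had an adjusted p of 0.175 and was not called. In R-named libraries COL6A2 and COL6A3, the latter at 0.80 (adjusted p = 0.0377), were called higher, where 3.27% of all genes were called higher. The fit of the 6 R-named libraries alone called both, and COL8A2 at 0.96 (adjusted p = 0.0474) as well, where 5.2% of all genes were called higher. Among diabetic wounds alone, R-named libraries had higher COL6A2 (1.13, adjusted p = 0.0453), COL6A3 (0.87, 0.0432) and COL16A1 (0.99, 0.0453), beside 1.98% of all genes called higher. Among the 4 non-diabetic wounds 0 genes of 13956 were called between the letters by limma.

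**Figure D4:**
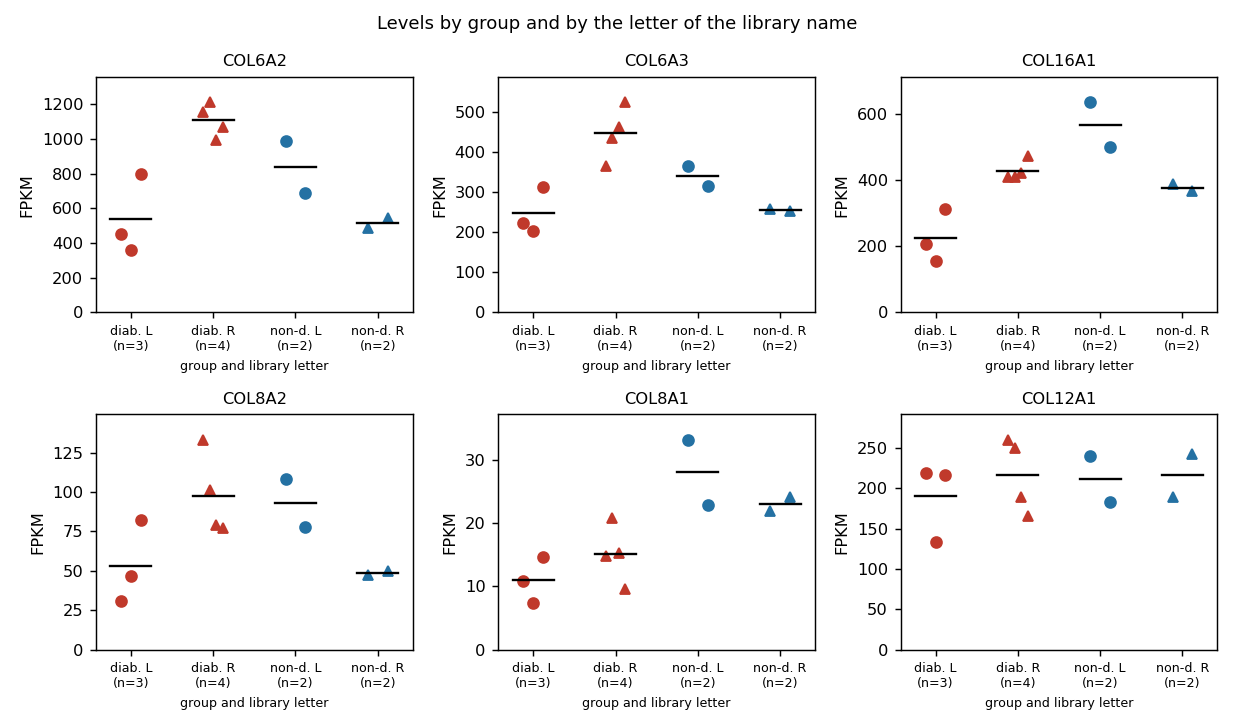
FPKM of 6 members by group and by the letter that opens the library name, each point a wound and each bar the mean, on axes that start at 0. COL6A2, COL6A3, COL16A1 and COL8A2 have the higher mean in R-named libraries among diabetic wounds and in L-named libraries among non-diabetic wounds, while COL8A1 is lower in diabetic wounds under both letters and COL12A1 is even.

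Markers of fibroblasts, the main source of these collagens in dermis, differed among the wounds as well. The summed FPKM of 13 fibroblast markers was 1138, 928 and 2523 in the 3 diabetic L-named libraries and 2186 to 3376 in the 4 R-named ones, and 2840, 1816, 1128 and 1653 in the non-diabetic wounds. Of these 13 markers, 0 were called between the groups. A called difference between the letters in the direction of COL6A2 was held by 3, PDGFRB, THY1 and FBLN2, beside 3.76% of all genes. SFRP2, with a mean of 1004 FPKM, made up much of the sum, and PDGFRA had a difference between letters of -0.89 that was not called. Diabetic replicate 3 had a higher marker sum than replicates 6 and 7 and a lower COL6A2. The part of fibroblast content in the results above was not tested, and in bulk RNA fewer cells of a type and less RNA per cell cannot be told apart. Of 9 fibrillar collagens, 0 were called between the groups. A called difference between letters in the direction of COL6A2 was held by 4, beside 3.76% of all genes. The median difference between letters was 1.07 over the 9, beside -0.01 over all genes. COL3A1, the most abundant of the 9 over all 11 wounds though not in the diabetic wounds alone, averaged 12614 FPKM in the diabetic wounds against 14812 in the others.

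Other cell types were read from fixed marker lists. Of 8 leukocyte markers 3 were called higher in diabetic wounds, ITGAM, CD14 and CD79A, beside 1.35% of all genes. In that list 6 log2 differences were above 0, and PTPRC (-0.01) and LCP1 (-0.10) were below. Of 12 keratinocyte markers KRT15 was called higher, beside 1.35% of all genes, though the groups overlapped in it. In that list 11 log2 differences were above 0 and 1 below, with a median of 0.39. Of 8 adipocyte markers LEP was called lower, beside 1.66% of all genes, from 1.31 FPKM in non-diabetic wounds. In that list 7 log2 differences were below 0, and FABP4 was above at 0.92, not called. Of 8 smooth muscle and pericyte markers RGS5 was called lower, while 6 of the 8 were above 0, with a list median of 0.27. None of 10 endothelial and 4 Schwann cell markers was called by limma. Without diabetic replicate 3, the wound with skeletal muscle RNA, the log2 difference of COL8A1 was -0.997 (adjusted p = 0.0808).

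Among receptors of these collagens, 1 of 11 tested was called lower and 0 higher, beside 1.66% and 1.35% of all genes. ANTXR1, a cell surface receptor that binds collagen VI and its alpha-3 fragment, averaged 42.7 ± 6.86 FPKM over the 7 diabetic wounds (SD) against 72.6 ± 5.46 over the 4 non-diabetic ones, a log2 difference of -0.77 (adjusted p = 0.00686 by limma). In each of the other receptors tested the groups overlapped. ITGB1, the most abundant receptor and the shared beta subunit of the collagen-binding integrins, had a log2 difference of -0.38 with an adjusted p of 0.107.

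Of 16 genes of collagen folding and processing, 2 were called lower and 0 higher in diabetic wounds, beside 1.66% and 1.35% of all genes. PLOD2, which hydroxylates telopeptide lysines for cross-links, averaged 25.2 FPKM in the diabetic wounds against 50.3 in the non-diabetic wounds, at -0.98 on the log2 scale (adjusted p = 0.00243). P4HA1, a catalytic subunit of prolyl 4-hydroxylase, averaged 33.0 and 51.3 FPKM, at -0.62 (adjusted p = 0.0139). The list's median log2 difference was 0.01, the same as over all genes. MMP2, a gelatinase and the most abundant of the list, averaged 2436 and 2564 FPKM and was not called between the groups. Its difference between letters was called, at 2.14 (adjusted p = 0.0496 by limma). Of the 16 genes, 7 had such a call in the direction of COL6A2, beside 3.76% of all genes, with a list median of 1.03.

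Of 13 matrix partners tested, 1 was called higher and 0 lower in diabetic wounds, beside 1.35% and 1.66% of all genes. It was MATN4, a matrilin that links matrix filaments, at 0.97 (adjusted p = 0.0473 by limma) from a low level of 0.202 FPKM in non-diabetic wounds. FN1 averaged 590 FPKM in the diabetic wounds against 883 in the others, with all diabetic wounds lower. Its log2 difference of -0.59 (adjusted p = 0.0567 by limma) lay just outside the threshold. So did that of FBN1, at -0.55 (adjusted p = 0.0595), where the groups overlapped. The paper lists FBN1 as downregulated. In the list 7 log2 differences were above 0 and 6 below. DCN, the decorin gene and the most abundant partner over all 11 wounds though not in the non-diabetic wounds alone, averaged 1860 and 1886 FPKM. Of 4 other FACIT and network collagens tested, COL9A2 was called lower, with a mean of 1.09 FPKM in the diabetic wounds against 47.1 in the others, a log2 difference of -4.91 (adjusted p = 1.4e-08). COL7A1, the anchoring fibril collagen, had the highest level of that list, at 55.6 and 58.7 FPKM.

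The genes whose log2 levels followed COL8A1 most closely over the 11 wounds were MRAS (Pearson's r 0.96), a RAS family GTPase, PKNOX1 (0.94), a homeobox factor, and RNF121 (0.94), a ubiquitin ligase. MRAS and PKNOX1 were themselves called lower in diabetic wounds, at -0.71 (adjusted p = 0.0171) and -0.53 (adjusted p = 0.0341), while RNF121 was not, at -0.32 (adjusted p = 0.180). The 11 points share 2 animals, so the correlations carry the difference between the groups.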

How the data were processed

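The FPKM values were deposited by the authors, who processed strand-specific poly-A libraries: fastp for trimming, HISAT2 2.2.1 for mapping to Sscrofa11.1, then StringTie 2.2.3 for transcripts and featureCounts 2.0.6 for reads on genes; the FPKM formula is not given in the sources used here. Multiplied by gene length, 100% of values were whole reads to within 0.05 reads, which gave the depth. The values, log2(FPKM + 0.5), were compared with limma 3.58.1 (R 4.3.3; lmFit, eBayes with trend) over 7 diabetic and 4 non-diabetic wounds, with Benjamini-Hochberg adjustment over 13956 genes. The study's own test used DESeq2 on counts, which were not used here. Tables and figures used pandas 2.3.3, numpy 2.4.6 and matplotlib 3.10.9 under Python 3.11.15. For single genes an exact permutation test (two-sided, all 330 splits enumerated in Python) has a smallest p of 0.00303. The script was tested on simulated data. The members and the lists were chosen with earlier results of these data known. Named genes were the members, called genes and the most abundant gene of each partner list, called markers, and the 3 genes most like the member with the largest difference. LOC100623720, LOC110259172, LOC100517188, FN1, FBN1 and the fibroblast markers named were added after their values were seen. Marker symbols KRT14 and LORICRIN and receptor symbol GPR126 matched no single row. Of 30376 gene identifiers, 30335 were in the annotation of the same build, and 26 symbols turned into dates were repaired. Alternatives changed the pseudocount, filter, scaling, spread estimate, library weights, replicate block, letter covariate, wounds included and use of voom. Replicate numbers were given separately in each animal and did not pair the wounds.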

Additional observations from a re-analysis of the deposited data

Results flagged for a closer look

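In COL14A1, non-diabetic replicate 1 measured 66.06 FPKM, far from the other 3 wounds of its group by Dixon's criterion, and it is also the non-diabetic wound that stood apart on the first principal component. Of the groups of the 9 members, 18 were checked and 1 met the criterion, where chance gives about 1 in 20. Without that wound the log2 difference of COL14A1 was 0.30.

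The difference between diabetic and non-diabetic wounds was not the same in R-named and L-named libraries for 3 members, by an interaction term in limma: COL6A2 at 1.82, COL6A3 at 1.28 and COL16A1 at 1.57 on the log2 scale. The meaning of the letter was not given in the labels, the fit was added after the values had been seen, and each of the calls was lost in 11 of 13 alternatives.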

How the results depend on the processing

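Over 26 alternatives, COL8A1 and COL16A1 were lower in diabetic wounds in each, except that COL16A1 reached 0.18 in R-named libraries alone. Genes called higher and lower (188 and 231) numbered 406 and 416 with library weights, 106 and 81 without both wounds that stood apart, 3 and 4 in L-named and 726 and 626 in R-named libraries alone, and 104 to 236 and 75 to 247 with each wound left out in turn. Members called lower (0) numbered 1, COL8A1, with quantile normalization, with the same summed FPKM in every library and with library weights, and 0 to 1 with each wound left out. Members called higher (0) numbered 3 in R-named libraries alone and 0 to 0 with each wound left out. Members with a called difference between letters (3) numbered 0 without both wounds that stood apart and 0 to 5 with each wound left out.

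The replicate block, with numbers that did not pair the wounds (correlations of deviations -0.267, 0.215, 0.068 and -0.483), gave 11 genes higher and 5 lower, and log2 differences of -0.068 for COL6A2, -0.13 for COL6A3, -0.068 for COL14A1 and -0.081 for COL8A2. In L-named libraries alone the log2 differences turned to -0.71 for COL6A2, -0.48 for COL6A3, -0.67 for COL14A1 and -0.89 for COL8A2. COL6A6 turned to 0.39 with library weights, 0.32 without both wounds that stood apart and 0.32 in R-named libraries alone. COL14A1 turned to -0.10 and COL8A2 to -0.024 with quantile normalization, and COL14A1 to -0.070 with the same summed FPKM and to -0.0004 with the letter as covariate. With each wound left out in turn, log2 differences ran from -0.22 to 0.29 for COL6A6, -0.15 to 0.015 for COL12A1, -0.15 to 0.30 for COL14A1 and -0.061 to 0.33 for COL8A2. The difference between letters for COL12A1 turned to -0.13 with the same summed FPKM and to -0.12 without both wounds that stood apart, and ran from -0.068 to 0.36 with each wound left out, as did that of COL6A6 from -0.0265 to 1.40. The causes of these turns were not tested. COL6A5 held 4 to 36 reads, too few for a difference to be detectable, while the members tested held at least 1262 reads in every wound.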
